A study of Mus musculus with 4 samples.

Results

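The 40 genes described here encode collagen chains other than the 4 main basement membrane chains Col4a1, Col4a2, Col15a1 and Col18a1. They were chosen by symbol alone (Col, a number, a and a number) and are 40 of the 44 such symbols among 32285 measured features. By structure they fall into 11 fibrillar chains, 9 FACIT chains (chains with interrupted helices that sit on fibrils), 6 beaded filament chains of type VI, 3 short-chain network formers, 4 minor type IV chains, 4 transmembrane chains and 3 others, among them Col7a1 of the anchoring fibrils. The minor type IV chains also build basement membranes and were kept because the choice names only the 4 genes left out. All 40 had at least 1 UMI (unique molecular identifier, 1 per captured transcript) in the cells analysed, and all 40 were found by identifier in GENCODE M21 (GRCm38).

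Cells peeled from the meninges under the dura of the cerebellum were measured in 4 droplet libraries with 3' chemistry, which reads 1 tag per transcript, so levels of different genes can be set side by side without dividing by length. The groups were NdpWT; Neurod2-SmoA1+/- and NdpKO; Neurod2-SmoA1+/-, with 2 libraries each. The transgene was shared by both groups: the Neurod2 promoter drives an active form of Smoothened in granule neurons, so no group had a cerebellum free of it. Norrin, the product of Ndp, is secreted and acts through the Wnt receptor Fzd4 on vessels, and the comparison asks how meningeal cells differ when it is missing. Per the labels the strain background was C57/BL6, every library pooled 5 cerebella taken from 3 litters, wild-type and knockout runs were matched by litter (with no word on which replicate numbers belong together), and the age was 6 to 8 days after birth in one field and 7 to 9 days in another. Values of 4 libraries are given in the order NdpWT replicate 1, NdpWT replicate 2, NdpKO replicate 1, NdpKO replicate 2.

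Fibrillar collagens are made as procollagens, folded and hydroxylated in the endoplasmic reticulum, trimmed outside the cell and crosslinked into fibrils, on which FACIT chains and small proteoglycans sit. Fibroblasts are their usual makers, and in the leptomeninges fibroblasts of the pia and arachnoid lay down this matrix around the vessels and over the brain surface. Type VII collagen links basement membranes to the fibrils beneath, and type IX collagen is best known from cartilage.

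After filtering, 37800 cells remained (5578 to 12528 per library), with a median of 7220 to 14290 UMIs per cell. The total deposited depth was 114363848 to 125981161 UMIs per library. NdpKO replicate 1 stood apart: 44.1% of its barcodes passed the filter against 64.8% to 67.0% in the other libraries. Of its barcodes 21.8% were over the mitochondrial limit of 10%, against 7.58% to 10.4% in the others. Its median of 14290 UMIs per cell was the highest. Pairs of libraries shared 15 to 47 kept barcodes, at most 0.442% of the smaller library. Ndp, the targeted gene, gave 200, 138, 40 and 50 UMIs in all kept cells, so tags of it remained in both libraries labelled NdpKO. Which part of the gene was deleted is not known from the labels, so this checks the labels only in part. Cells were grouped into classes by markers that include none of the 40 genes, and 8375 were fibroblasts.

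The 2 genes that passed the test between the genotypes were Col9a2 and Col7a1, in pial-like fibroblasts. The RefSeq start regions of these genes (GRCm38.p6, 250 bases upstream of the listed start, in the direction of the gene) are shown because only these 2 members were called, and in opposite directions. Capitals mark the 4 short motifs searched on both strands. They were TATAAA (the core of the TATA box), CCAAT (a box bound by the factor NF-Y), GGGCGG (a GC box, bound by factors of the Sp family) and CTTTGAT (a form of the TCF/LEF site through which Wnt signals act). Col9a2 lies on the plus strand at chr4:121039385-121055322 and Col7a1 on the plus strand at chr9:108953586-108984875 in GENCODE M21, and Mir711 lies within Col7a1 on the same strand. The GENCODE start of Col9a2 falls inside the printed window, upstream of the RefSeq start.
Col9a2 (chr4:121039316-121039565, plus strand): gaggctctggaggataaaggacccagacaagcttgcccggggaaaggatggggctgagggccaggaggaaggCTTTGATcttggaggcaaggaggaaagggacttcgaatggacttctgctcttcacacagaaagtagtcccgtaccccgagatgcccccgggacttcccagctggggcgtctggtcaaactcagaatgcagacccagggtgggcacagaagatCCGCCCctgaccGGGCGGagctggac
Col7a1 (chr9:108953336-108953585, plus strand): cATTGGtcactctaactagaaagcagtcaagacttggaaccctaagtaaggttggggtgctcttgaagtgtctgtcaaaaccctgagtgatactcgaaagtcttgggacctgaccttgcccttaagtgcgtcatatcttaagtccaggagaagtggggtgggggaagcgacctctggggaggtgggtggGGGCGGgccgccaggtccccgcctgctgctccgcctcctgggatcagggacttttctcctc

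The Col9a2 window held 2 GC boxes and 1 CTTTGAT, and the Col7a1 window held 1 CCAAT and 1 GC box. Of 33 RefSeq windows of 31 member genes, 1 held CTTTGAT (that of Col9a2), 20 held GGGCGG, 10 held CCAAT and 5 held TATAAA. Among all 32851 windows of this length the shares were 3.21% for CTTTGAT, 32.7% for GGGCGG, 33.9% for CCAAT and 12.4% for TATAAA. Such matches describe the letters in these windows and nothing about binding.

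Levels by cell class are described without a test, since the classes were drawn from the same cells. Fibroblasts held most of these transcripts: 15 of the 40 genes had at least 90% of their UMIs there, and 19 had their highest mean level there. Together the 40 genes made up 1.16%, 1.13%, 1.07% and 0.911% of all fibroblast UMIs. Col3a1, Col1a2 and Col1a1 alone gave 69.3% of all member UMIs. The mean level in fibroblasts was 3003 CPM (the usual depth-scaled count, here the gene's UMIs scaled to the total UMIs of the class in that library) for Col3a1, the chain of type III collagen, 2518 CPM for Col1a2 and 2110 CPM for Col1a1, the chains of type I collagen. Next came Col6a1 with 482 CPM and Col6a2 with 362 CPM, both chains of the type VI microfibril, and Col5a2 with 342 CPM, a type V chain that takes part in starting fibrils.

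Some members were highest elsewhere. Col5a2 reached a mean of 425 CPM in endothelial cells. Col8a1, a short-chain collagen of vessel walls, reached 307 CPM in mural cells against 45.4 CPM in fibroblasts as a class. It led a small fibroblast subcluster, F12, of 12, 7, 31 and 1 cells. The 3 short-chain genes summed to 1525, 1019, 1634 and 2787 CPM there. Col9a3, a partner chain of Col9a2 in type IX collagen, was at 342 CPM in oligodendrocyte lineage cells and 2.79 CPM in fibroblasts, and only 3.25% of its UMIs were in fibroblasts. Col2a1, the chain of cartilage type II collagen, was at 94.5 CPM in astroglia and 1.93 CPM in fibroblasts. The astroglial and oligodendrocyte classes had fewer than 50 cells in at least 1 library, so they were not tested between genotypes. Col19a1, Col24a1, Col6a4, Col10a1 and Col17a1 stayed under 1 CPM in fibroblasts and were the 5 members that failed the low-count filter there.

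**Figure D1:**
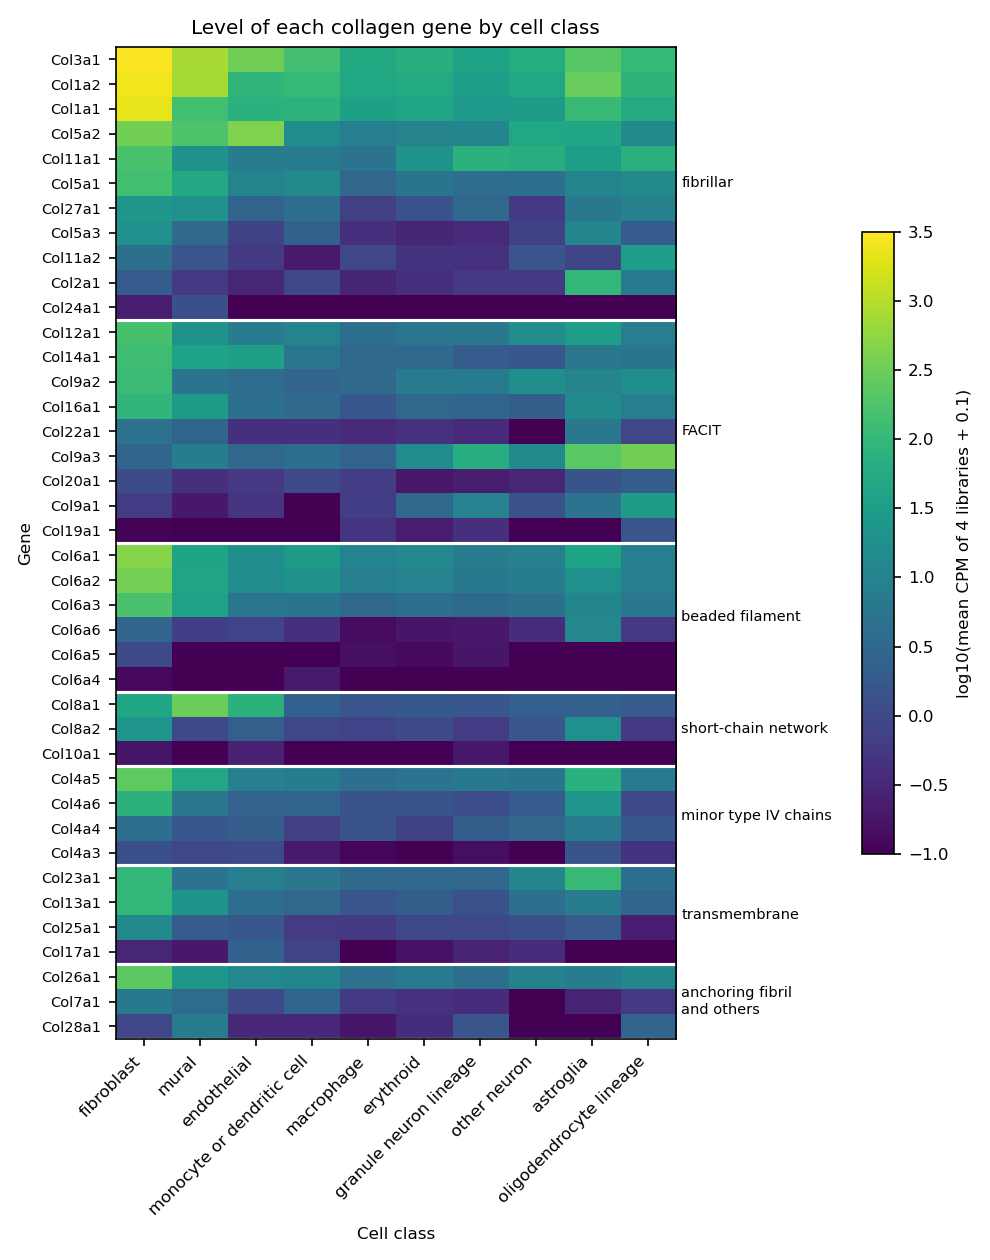
Mean CPM over the 4 libraries of each of the 40 collagen genes (rows, grouped by structure) in 10 cell classes (columns), as log10(CPM + 0.1). Most rows are brightest in fibroblasts, while Col5a2 is brightest in endothelial cells, Col8a1 in mural cells and Col9a3 in oligodendrocyte lineage cells.

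In the fibroblast class as a whole no collagen gene passed the unblocked edgeR test between genotypes. The abundant fibrillar chains were slightly lower in value in NdpKO, Col7a1 and Col13a1 were lower, and Col9a2 was higher, none at the adjusted threshold of 0.05. By edgeR's quasi-likelihood test with Benjamini-Hochberg adjustment, 0 of the 35 members that passed the filter were called, in a fit that called 0% of 16175 genes. At an unadjusted p under 0.05 there were 1 higher and 4 lower members, while 2.86% of all genes tested were higher and 2.73% lower by that rule. DESeq2 called 1 member, Col7a1. The log2 change (NdpKO over NdpWT) of the 35 members had a median of -0.20 with 9 above 0, beside a median of -0.00066 over all genes, 49.9% of which were above 0. Groups that do not overlap are common with 2 libraries each: this held for 35.3% of all genes tested in fibroblasts, 41% in subcluster F1 described below, 36.3% in mural cells and 43.2% in endothelial cells.

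Of the fibrillar chains, 10 of 11 were tested and 8 were lower in value. Col3a1 was at 3080, 3675, 2779 and 2480 CPM, scaled by TMM factors as are all tested levels below. Both NdpKO values lie below both NdpWT values, with a log2 change of -0.36 ± 0.15 (SE, edgeR adjusted p = 0.888). Col1a2 was at 2798, 2604, 2390 and 2291 CPM, and its groups do not overlap either (log2 -0.21 ± 0.13, adjusted p = 0.895). Col1a1 was at 2644, 1884, 2249 and 1678 CPM. Here the replicates differ more than the genotypes and the groups overlap (log2 -0.20 ± 0.21). Col5a2 was at 404, 350, 341 and 272 CPM (log2 -0.30 ± 0.15), again with no overlap. Col5a1, the other main type V chain, was the largest upward value of the group with 124, 137, 173 and 125 CPM (log2 0.19 ± 0.17), and its groups overlap. Col11a1, a type XI chain related to type V, had a log2 change of -0.25 ± 0.14, Col27a1 -0.20 ± 0.15 and Col5a3 -0.26 ± 0.15. Summed, the fibrillar chains made up 0.904% ± 0.0087 (SD, n = 2) of fibroblast UMIs in NdpWT and 0.761% ± 0.085 (SD, n = 2) in NdpKO. The 2 NdpKO libraries, at 0.821% and 0.701%, differ from each other by nearly as much as the genotypes do.

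The FACIT chains were mixed, with 4 higher and 4 lower of 8 tested. Col9a2 was at 102, 90.9, 128 and 149 CPM, so both NdpKO libraries lie above both NdpWT libraries (log2 0.52 ± 0.13, adjusted p = 0.609). Col14a1, a chain found along type I fibrils, was at 111, 126, 131 and 148 CPM (log2 0.23 ± 0.13). Col12a1, its close relative, was at 182, 136, 190 and 121 CPM and Col16a1 at 98.0, 90.8, 97.8 and 83.7 CPM. Both show overlapping groups, with log2 changes of -0.03 ± 0.25 and -0.06 ± 0.12.

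All 5 tested type VI chains were lower in value. Col6a1 was at 556, 480, 489 and 406 CPM (log2 -0.21 ± 0.14), Col6a2 had a log2 change of -0.05 ± 0.17 and Col6a3 of -0.06 ± 0.16. The groups overlap for each of these 3 chains. The scarcer Col6a5 was at 0.944, 1.32, 0.650 and 0.612 CPM with no overlap (log2 -0.84 ± 0.37, edgeR adjusted p = 0.888), the lowest log2 value of the 35 members after Col7a1. Col6a6 had a log2 change of -0.19 ± 0.24. In the short-chain group, Col8a1 was at 51.2, 40.8, 68.0 and 21.5 CPM, where the NdpKO libraries are the highest and the lowest (log2 -0.04 ± 0.59). The small subcluster F12 held 265, 88, 1414 and 49 of the 2173, 1826, 4356 and 1485 fibroblast UMIs of this group. Its part in the Col8a1 values was not tested. Col8a2, the partner of Col8a1, had a log2 change of 0.21 ± 0.30.

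The 4 minor type IV chains were all lower in value. Col4a6 was at 90.3, 80.9, 65.3 and 69.7 CPM with no overlap (log2 -0.34 ± 0.12, adjusted p = 0.830), and Col4a5, which lies next to it on the X chromosome, at 267, 259, 216 and 237 CPM (log2 -0.22 ± 0.11). Of the transmembrane chains, Col13a1 was at 110, 123, 58.0 and 86.5 CPM. It is lower in both NdpKO libraries, which differ between themselves (log2 -0.68 ± 0.20, adjusted p = 0.746). Col23a1 had a log2 change of -0.22 ± 0.16 and Col25a1 of 0.12 ± 0.19. Col26a1, an abundant member at 219, 240, 237 and 220 CPM, was nearly level (log2 -0.01 ± 0.12).

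Col7a1 was the member with the largest fall in value. It was at 11.1, 8.86, 2.92 and 3.54 CPM in all fibroblasts, so every NdpKO library was below every NdpWT library (log2 -1.63 ± 0.20, edgeR adjusted p = 0.208). DESeq2 gave an adjusted p of 5.2e-06 for the same counts, so the call depends on the tool. Without NdpWT replicate 2 edgeR also called Col7a1 (adjusted p = 0.0176), and without NdpKO replicate 1 it called 0 members.

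The make-up of the fibroblast class moved between the genotypes. Subcluster F1, called pial-like because Col15a1 and Lama1 led it, held 25.4%, 24.8%, 10.2% and 14.6% of fibroblasts. F0, called Slc6a13 and Aldh1a2 leptomeningeal-like, held 19.8%, 17.2%, 21.4% and 25.3%. How far this shift sets the values over all fibroblasts was not tested, and the subclusters, drawn without any of the 40 genes, were compared one by one. F2 was named for Ecrg4, Nppc and Igfbp6 and F5 for cycling genes. F4 (led by Igfbp3 and Enpp2) and F7 (led by Mfap4 and Entpd2) stayed unnamed, as did F3 and F6, whose cells had median depths of 1370 and 1512 UMIs. Aldh1a2, a naming marker of F0, was higher in F4 (1234, 805, 1050 and 912 CPM) than in F0 (597, 477, 552 and 543 CPM). Slc13a4 was also higher in F4 in every library, while Slc6a13 was higher in F0. Dcn, a pial marker, was higher in F4 (4881, 6676, 5065 and 5896 CPM) than in F1 in every library. The pial markers Col15a1, Lum, Lama1 and Ngfr were higher in F1 than in F4. Lum and Ngfr were also among the genes next after those leading F7. F8, F10 and F11 carried markers of granule neurons, erythroid cells and macrophages and were not described further, and F9 and F12 had too few cells in some libraries to be tested. Without these 3 subclusters, an alternative chosen after seeing the data, the fibroblast class again had 0 members called.

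In F1, Col9a2 rose and Col7a1 fell in NdpKO. These 2 were called of the 30 members tested there, while 0.291% of the 12378 genes tested in F1 were called. Col9a2 was at 31.6, 25.3, 56.8 and 60.8 CPM (208, 197, 266 and 342 UMIs). The NdpKO libraries lie close together, well above both NdpWT libraries (log2 1.05 ± 0.16, edgeR adjusted p = 0.0281). Col7a1 was at 32.7, 23.3, 11.3 and 11.4 CPM (215, 182, 53 and 64 UMIs). Here too the NdpKO libraries nearly coincide, below both NdpWT libraries (log2 -1.30 ± 0.22, adjusted p = 0.0408). Both calls sit near the threshold and depend on the libraries. The Col9a2 call ended when NdpWT replicate 2 (adjusted p = 0.0598), NdpKO replicate 1 (0.313) or NdpKO replicate 2 (0.162) was left out. That of Col7a1 ended when NdpWT replicate 1 (0.141), NdpKO replicate 1 (0.535) or NdpKO replicate 2 (0.195) was. In stricter cells they were 0.0509 and 0.0817, and with subclusters drawn at resolution 1 Col9a2 was called and Col7a1 was not (0.0613). The log2 changes stayed between 0.90 and 1.22 for Col9a2 and between -1.52 and -1.04 for Col7a1 when 1 library was left out, and DESeq2 called both.

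The listed markers of F0, where Col9a2 is more abundant, and of F1 itself showed no common direction in F1. The 6 listed markers of F0 summed to 1653, 1386, 1395 and 1491 CPM in F1, mostly Slc6a13 at 1003, 879, 776 and 840 CPM. Of the other 5, Slc6a20a (254, 257, 258 and 321 CPM) and Slc4a10 (2.24, 2.95, 3.46 and 3.89 CPM) were higher in both NdpKO libraries, while Aldh1a2 and Slc13a4 overlapped. For Slc6a20a, NdpKO replicate 1 was barely above NdpWT replicate 2. Slc4a10 was about as low in F0 itself (1.74, 1.51, 2.79 and 4.99 CPM). Slc22a2 was also higher in value (0.149, 0.257, 0.649 and 0.707 CPM). It lay near or under the floor of 0.649 CPM, the level of 3 UMIs in the library with fewest F1 UMIs. The 5 pial markers summed to 5737, 6476, 5796 and 6063 CPM, mostly Dcn at 4016, 4648, 4175 and 4558 CPM, a gene also at 2980 to 4344 CPM in F0. Col15a1, the leading gene of F1, was at 979, 960, 688 and 666 CPM there, lower in both NdpKO libraries. Ngfr, also on the pial list, was higher in both NdpKO libraries (26.4, 17.6, 47.8 and 30.95 CPM). Lum, Lama1 and Dcn overlapped. The part of these markers in the Col9a2 and Col7a1 values was not tested.

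The other members of F1 did not pass the test, and 22 of the 30 had a value below 0, with a median log2 change of -0.20 beside 0.0038 over all genes. At an unadjusted p under 0.05 there were 3 higher and 5 lower members, Col9a2 and Col7a1 included, beside 4.74% and 5% of all genes. The others were Col14a1 and Col28a1 above and Col13a1, Col5a3, Col12a1 and Col22a1 below. Col5a3, another type V chain, was at 25.9, 24.2, 16.0 and 16.7 CPM (log2 -0.61 ± 0.18, edgeR adjusted p = 0.266), and Col12a1 at 139, 127, 89.1 and 108 CPM (log2 -0.44 ± 0.14, adjusted p = 0.332), with no overlap in either. All 9 fibrillar chains tested were lower in value, with Col3a1 at 5335, 5032, 4625 and 3369 CPM (log2 -0.38 ± 0.17, adjusted p = 0.520) and Col1a2 at 3788, 3024, 2749 and 2660 CPM (log2 -0.33 ± 0.15, adjusted p = 0.529). The NdpKO libraries are lower than the NdpWT libraries for both, by amounts close to the spread within a genotype. Col13a1 had 249, 230, 168 and 193 CPM in F1 (log2 -0.40 ± 0.13, adjusted p = 0.333), against a log2 change of -0.68 over all fibroblasts. Col14a1 had 48.1, 76.0, 88.0 and 102 CPM (log2 0.61 ± 0.20, adjusted p = 0.358).

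**Figure D2:**
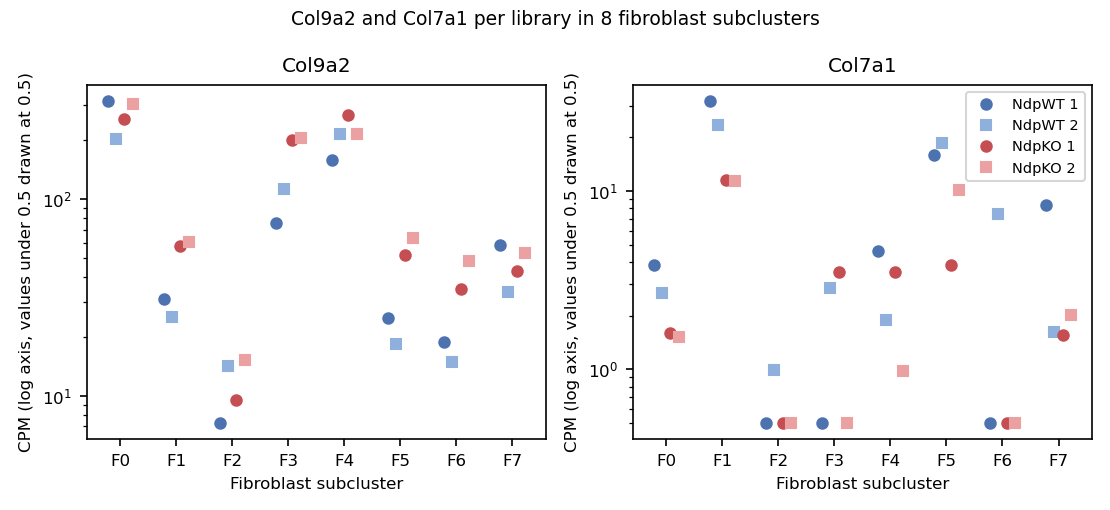
CPM (plain library totals, log axis) of Col9a2 and Col7a1 in each of the 4 libraries for fibroblast subclusters F0 to F7. In F1 the NdpKO points lie above the NdpWT points for Col9a2 and below them for Col7a1. Col9a2 is highest in F0, F3 and F4 and Col7a1 in F1 and F5.

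Across the other subclusters Col9a2 was abundant in F0, where it was at 321, 199, 256 and 306 CPM and the genotypes overlap (log2 0.11 ± 0.22, edgeR adjusted p = 0.966). In F4 it was at 161, 214, 265 and 216 CPM (log2 0.35 ± 0.17), in F2 at 7.41 to 15.3 CPM (log2 0.27 ± 0.34) and in F7 at 33.8 to 59.8 CPM (log2 0.10 ± 0.25). In the cycling cells of F5 it was at 25.4, 18.7, 51.0 and 64.0 CPM (log2 1.39 ± 0.22, edgeR adjusted p = 0.196). Both NdpKO libraries were above both NdpWT libraries there. With the highest doublet scores removed, F5 kept 24, 56, 101 and 32 of its 89, 192, 148 and 187 cells. Some libraries then held fewer than 50 cells, so F5 was not tested in that setting. The shallow subclusters F3 and F6 showed log2 changes of 1.12 ± 0.27 and 1.37 ± 0.56, not called. Fitted together with the library as a block, the change of Col9a2 in F1 exceeded that in F0 by 0.91 ± 0.12 (adjusted p = 0.00375) and that in F7 by 0.94 ± 0.20 (adjusted p = 0.0169). Leaving out NdpKO replicate 1 ended the first call (adjusted p = 0.0775), and leaving out NdpWT replicate 1 (0.445) or using stricter cells (0.107) ended the second. The differences from F2 (0.75 ± 0.40, adjusted p = 0.658), F4 (0.72 ± 0.25, adjusted p = 0.401) and F5 (-0.34 ± 0.19, adjusted p = 0.954) did not pass. These 5 fits, chosen after seeing the data, called 0.138% of genes against F0, 0.527% against F2, 1.5% against F4, 0.00782% against F5 and 0.548% against F7.

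Col7a1 was low outside F1 and F5. In F5 it was at 16.1, 18.7, 3.79 and 10.3 CPM (log2 -1.36 ± 0.42, edgeR adjusted p = 0.979). Both NdpKO libraries were below both NdpWT libraries there. The pial marker Col15a1 was at 379, 533, 144 and 272 CPM in F5, and Lama1 at 103, 119, 59.6 and 75.9 CPM. Both were lower in both NdpKO libraries, as was Dcn, while Lum overlapped and Ngfr was higher. The part of these markers in the F5 values was not tested. In F0 Col7a1 was at 3.88, 2.63, 1.62 and 1.52 CPM (log2 -1.04 ± 0.41, adjusted p = 0.737). In F4 it was at 0.993 to 4.65 CPM with overlapping groups. It failed the filter in F2, F3, F6 and F7, with 12 UMIs in all 4 libraries of F2 and 24 in F7. None of the 5 differences from F1 passed for Col7a1: -0.26 ± 0.36 against F0, -0.91 ± 0.97 against F2, -0.94 ± 0.52 against F4, 0.09 ± 0.42 against F5 and -0.05 ± 0.88 against F7. Members other than Col9a2 were called in 2 of these fits. The change in F1 was below that in F4 for Col5a1 (-0.61 ± 0.10, adjusted p = 2.3e-06) and above it for Col14a1 (0.63 ± 0.14, adjusted p = 0.00379), and below that in F7 for Col23a1 (-0.81 ± 0.14, adjusted p = 0.00179). The Col5a1 call held without each library, the Col14a1 call ended when NdpWT replicate 2 (0.346) or NdpKO replicate 1 (0.325) was left out, and the Col23a1 call without NdpKO replicate 1 (0.0558).

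No member was called in the other subclusters. The members tested numbered 29 in F0, 28 in F2, 19 in F3, 27 in F4, 27 in F5, 17 in F6 and 25 in F7, and the share of all genes called was 0% in F0, 0% in F2, 0% in F3, 0.0426% in F4, 0% in F5, 0% in F6 and 0% in F7. Members with an unadjusted p under 0.05 numbered 3, 3, 3, 3, 5, 2 and 1 in the same order, while the shares of all genes were 6.38%, 4.76%, 5.78%, 7.14%, 4.98%, 3.37% and 4.9%. Beside Col9a2 and Col7a1 these were Col13a1 and Col2a1 in F0, Col6a5, Col23a1 and Col14a1 in F2, Col3a1 and Col23a1 in F3, Col5a1, Col27a1 and Col26a1 in F4, Col5a3, Col23a1 and Col4a6 in F5, Col6a3 in F6 and Col23a1 in F7. DESeq2 called Col9a2 in F5 and no member in the other 6.

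Col23a1, a transmembrane chain, had values on both sides of 0. In F2 it was at 157, 163, 123 and 105 CPM (log2 -0.48 ± 0.13, edgeR adjusted p = 0.614) and in F5 at 104, 66.9, 63.4 and 46.3 CPM (log2 -0.62 ± 0.24, adjusted p = 0.994). In F7 it was at 77.6, 76.5, 163 and 108 CPM (log2 0.80 ± 0.19, adjusted p = 0.615). Both NdpKO libraries lie below NdpWT in the first 2 and above in the last, and the difference between F2 and F7 was not tested. In F4, Col5a1 was at 226, 208, 339 and 238 CPM, where NdpKO replicate 1 stands well above the rest (log2 0.41 ± 0.17, adjusted p = 0.621). Of the main fibrillar chains, Col1a1 in F2 had 1892, 1681, 2368 and 1870 CPM, with a log2 change of 0.25 ± 0.16. F7 had the highest collagen levels of the 8 subclusters, with 8501, 8113, 8113 and 6220 CPM of Col3a1, and members made up 2.07% to 2.90% of its UMIs.

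**Figure D3:**
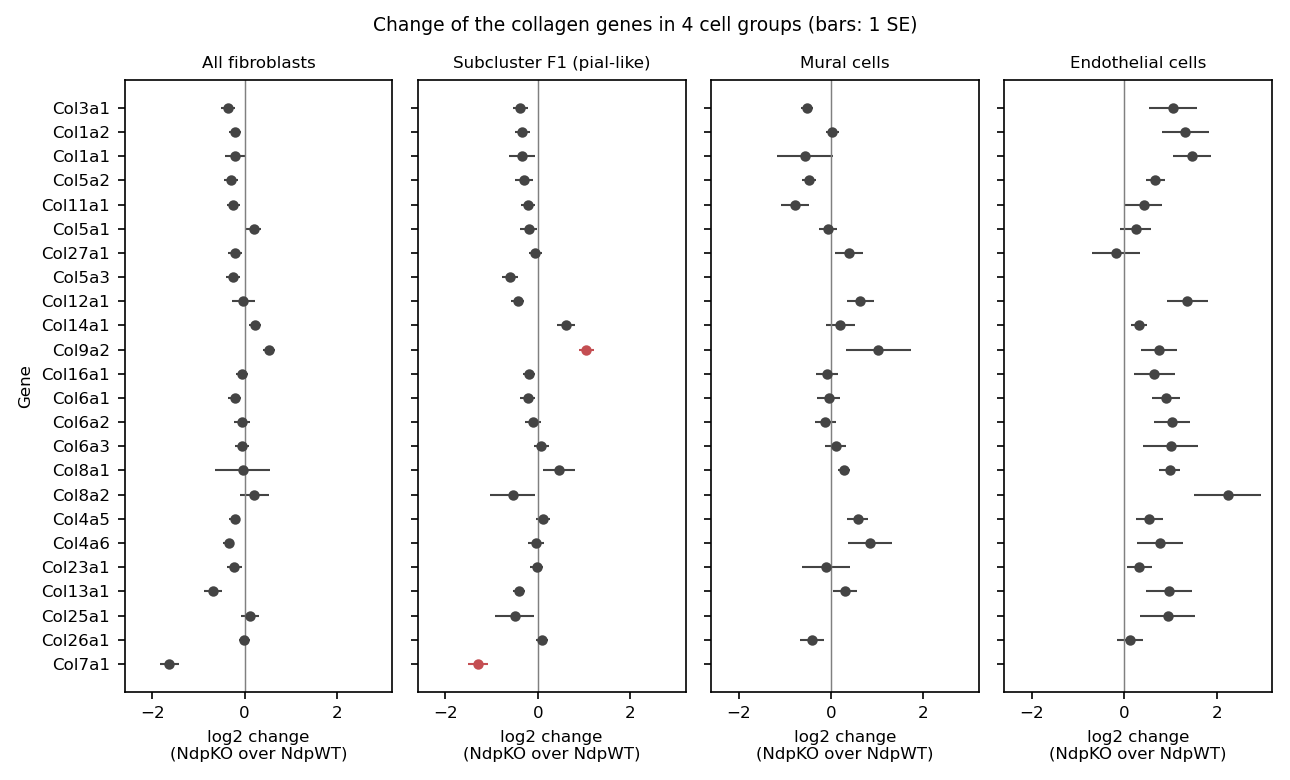
Log2 change (NdpKO over NdpWT) with 1 SE for the collagen genes named in fibroblasts, in all fibroblasts, in subcluster F1, in mural cells and in endothelial cells, where each gene was tested. Red points passed the adjusted threshold of 0.05, which only Col9a2 and Col7a1 in F1 did; points in endothelial cells lie mostly above 0.

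Mural cells, the pericytes and smooth muscle cells around vessels, held 0.287% ± 0.0143 (SD, n = 2) of their UMIs in the 40 genes in NdpWT and 0.246% ± 0.0071 (SD, n = 2) in NdpKO. Of 22 members tested 0 were called, in a fit that called 0.0371% of 10796 genes. At an unadjusted p under 0.05 there were 2 higher and 3 lower members, beside 3.5% and 3.15% of all genes, and DESeq2 called 0. These were Col4a5 and Col12a1 above and Col3a1, Col5a2 and Col11a1 below. Col3a1 was at 921, 1010, 651 and 694 CPM, with no overlap (log2 -0.52 ± 0.13, edgeR adjusted p = 0.297). Col5a2 was at 204, 199, 160 and 130 CPM, also with no overlap (log2 -0.48 ± 0.15, adjusted p = 0.453). Col8a1 was at 276, 285, 360 and 320 CPM, both NdpKO libraries above NdpWT (log2 0.28 ± 0.13, adjusted p = 0.770). Col1a2 was at 815, 755, 892 and 711 CPM and Col1a1 at 237, 95.2, 131 and 85.8 CPM, both with overlapping groups. The 12 fibroblast markers other than Mgp summed to 1237, 1098, 897 and 1127 CPM in mural cells, and all 12 were above 0 in every library. In a fit of mural cells and fibroblasts together, which called 0.576% of genes, the mural change was above the fibroblast change for Col13a1 (1.00 ± 0.24, adjusted p = 0.0361) and Col4a5 (0.77 ± 0.18, adjusted p = 0.0396). The fit was chosen after seeing the data, and the Col13a1 call was lost without NdpWT replicate 2 (adjusted p = 0.375), without NdpKO replicate 1 (0.286) and in stricter cells (0.712). The Col4a5 call was lost without NdpWT replicate 1 (0.285).

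Endothelial cells had the opposite direction in value from fibroblasts. Members made up 0.0714% and 0.0912% of their UMIs in NdpWT and 0.186% and 0.117% in NdpKO. Of 25 members tested 0 were called, in a fit that called 2.49% of 12561 genes, and 23 of the 25 had a value above 0 against 49.9% of all genes. Their median log2 change was 0.75 beside -0.00018 over all genes. At an unadjusted p under 0.05 there were 7 higher members and 1 lower, beside 7.32% and 5.73% of all genes, and DESeq2 called Col8a1 (adjusted p = 0.0061). Beside 3 of the abundant chains below (Col5a2, Col1a1 and Col8a1) the 7 were Col8a2, Col12a1, Col6a1 and Col6a2, each at 27.2 CPM or less in every library. The lower one was Col9a3 at 4.48, 5.2, 1.33 and 1.84 CPM (log2 -1.63 ± 0.45, adjusted p = 0.0992), named after its values were seen.

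Col5a2 was the most abundant member of endothelial cells at 348, 311, 639 and 407 CPM. Both NdpKO libraries lie above both NdpWT libraries, NdpKO replicate 1 by far the highest (log2 0.67 ± 0.21, edgeR adjusted p = 0.174). Col3a1 was at 163, 270, 617 and 288 CPM, where NdpKO replicate 2 is only just above the higher NdpWT library (log2 1.05 ± 0.52, adjusted p = 0.574). Col1a2 was at 29.8, 69.0, 158 and 102 CPM (log2 1.33 ± 0.50, adjusted p = 0.450) and Col1a1 at 27.9, 49.4, 141 and 81.3 CPM (log2 1.47 ± 0.41, adjusted p = 0.25). Both show the same order of libraries, with NdpKO replicate 1 highest. Col8a1 was at 42.3, 60.2, 83.3 and 123 CPM, the one of these 5 genes with NdpKO replicate 2 highest (log2 0.98 ± 0.23, adjusted p = 0.0849). Without NdpKO replicate 1 Col8a1 and Col1a1 were called (log2 1.24, adjusted p = 3.6e-09, and log2 1.02, adjusted p = 2.2e-05), in a fit that called 3.38% of all genes. Without NdpKO replicate 2 there were 9 calls beside 5.28% of all genes, without NdpWT replicate 1 there was 1 (Col8a2) beside 2.8%, and without NdpWT replicate 2 there were 5 beside 3.86%.

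**Figure D4:**
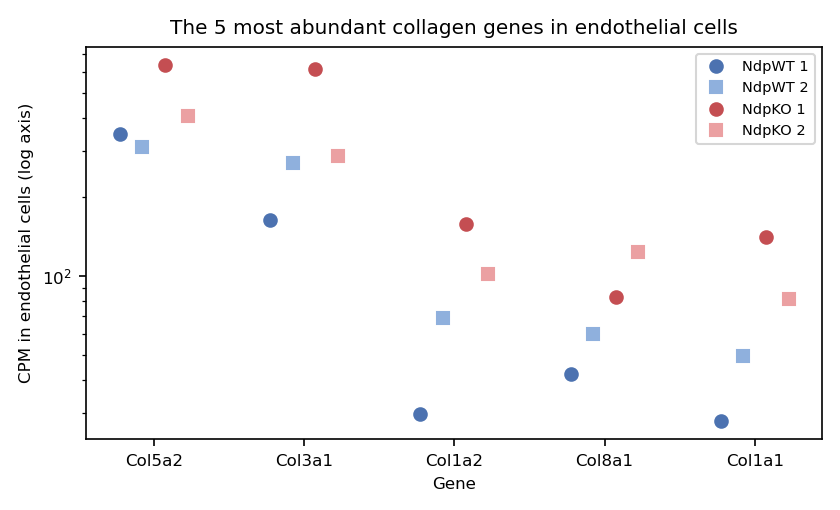
CPM (TMM-scaled, log axis) in endothelial cells of the 5 members most abundant there, for each of the 4 libraries. For each gene the NdpKO points lie above the NdpWT points, with NdpKO replicate 1 highest for 4 genes and NdpKO replicate 2 highest for Col8a1.

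Summed fibroblast markers moved with these values in part. The 12 fibroblast markers other than Mgp, which are no collagens, summed to 606, 920, 1190 and 888 CPM in endothelial cells, and all 12 were above 0 in every library, against 12760 to 14830 CPM in fibroblasts. Mgp was left out of this sum because it was at 2188 to 4255 CPM in endothelial cells, above its level in fibroblasts for NdpWT replicate 2 and both NdpKO libraries. Foxc1 stayed in the sum, though it was at 139.5 to 172 CPM in endothelial cells against 6.08 to 15.4 CPM in erythroid cells. The sum therefore need not be fibroblast RNA alone. Igf2 was at 221, 299, 498 and 280 CPM in endothelial cells and Dcn at 50.4, 146, 172.5 and 155 CPM. NdpKO replicate 1 was highest both in this sum and in Col1a1, Col1a2, Col3a1 and Col5a2. For each Dcn UMI, a fibroblast proteoglycan, there were 0.544, 0.338, 0.816 and 0.529 Col1a1 UMIs in endothelial cells and 0.726, 0.403, 0.646 and 0.399 in fibroblasts. The endothelial ratio was below that of fibroblasts in both NdpWT libraries and above it in both NdpKO libraries. Col1a2 showed the same order, with 0.581, 0.472, 0.914 and 0.661 in endothelial cells and 0.769, 0.556, 0.687 and 0.545 in fibroblasts. In erythroid cells the ratios were 0.950, 0.264, 0.867 and 0.363 for Col1a1 and 0.975, 0.463, 0.855 and 0.491 for Col1a2. Both erythroid ratios were above those of fibroblasts in replicate 1 of each genotype and below them in replicate 2. For Col5a2 the same ratios were 6.79, 2.13, 3.71 and 2.64 in endothelial cells and 0.0646 to 0.111 in fibroblasts. For Col8a1 they were 0.412 to 0.825 against 0.00511 to 0.0195, and for Col3a1 1.85 to 3.58 against 0.590 to 0.846. With the cells of highest doublet score also removed, which left 215, 834, 239 and 390 of 269, 1071, 312 and 514 endothelial cells, the endothelial log2 change fell to 0.20 for Col1a1 and 0.04 for Col1a2, while it was 0.85 for Col3a1, 0.68 for Col5a2 and 1.05 for Col8a1. None of these 5 was called there. What part of the endothelial values is fibroblast RNA or doublets was not tested.

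The difference between endothelial cells and fibroblasts was tested in a joint fit, chosen after seeing the data, which called 2.94% of 16012 genes. Of 36 members tested, Col5a2 was called: its endothelial change exceeded its fibroblast change by 0.98 ± 0.11 (adjusted p = 0.0018), and it was called without each library and with the highest doublet scores removed. Col8a2 (2.04 ± 0.49, adjusted p = 0.0549) and Col13a1 (1.64 ± 0.37, adjusted p = 0.0697) came next and did not pass.

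In the other 5 classes tested no member was called. They were granule neuron lineage cells (29 members tested), macrophages (21), erythroid cells (18), monocytes or dendritic cells (11) and other neurons (9). The share of all genes called was 0% in granule neuron lineage cells, 0.0242% in macrophages and 0% in erythroid cells, in monocytes or dendritic cells and in other neurons. Members with an unadjusted p under 0.05 numbered 1, 0, 2, 3 and 2 in that order, beside 1.67%, 5.56%, 1.38%, 4.93% and 5.79% of all genes, and DESeq2 called 0 in each. Col9a3 was among them in granule neuron lineage cells, at 66.1, 79.3, 54.6 and 51.9 CPM (log2 -0.45 ± 0.15, edgeR adjusted p = 1.00), and in erythroid cells (log2 -0.92 ± 0.28). In other neurons Col9a3 had the opposite sign (log2 1.45 ± 0.47, adjusted p = 0.491). Of the rest, Col1a1 was above 0 in erythroid cells, Col5a2, Col5a1 and Col1a2 were below in monocytes or dendritic cells, and Col5a2 was below in other neurons. In erythroid cells, which are not known to make collagen, the 40 genes held 0.0235%, 0.0353%, 0.0248% and 0.0329% of UMIs. In macrophages they held 0.0169% to 0.0265%, so the endothelial share was above this level in all 4 libraries.

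**Figure D5:**
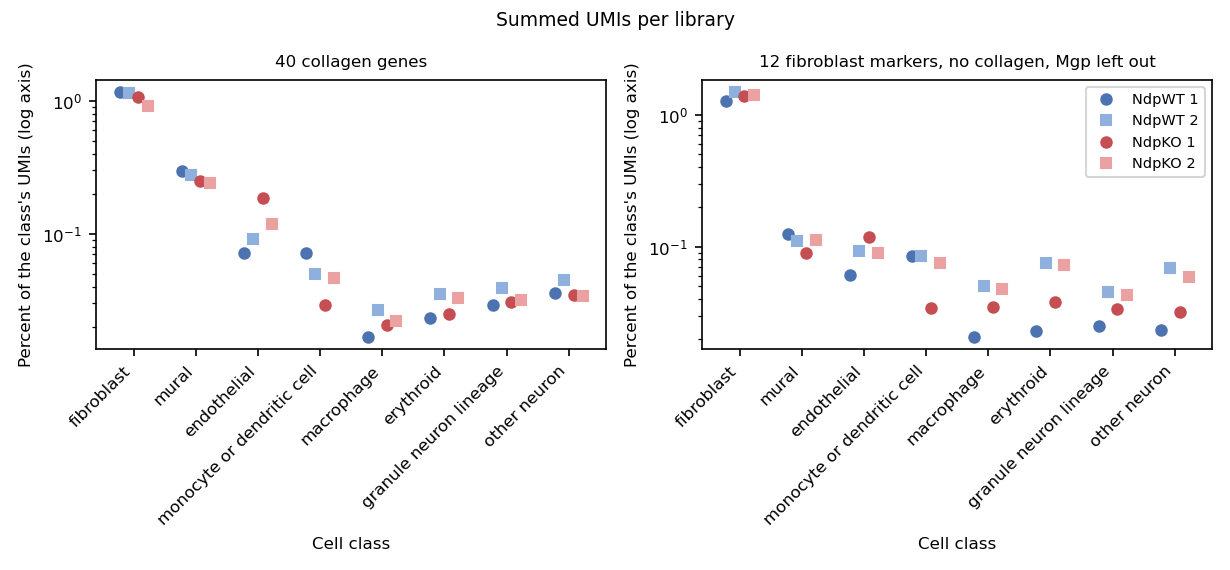
Percent of a class's UMIs (log axis) held by the 40 collagen genes (left) and by 12 fibroblast markers that are no collagens (right, Mgp left out), per library, in the 8 classes tested. The collagen share falls from about 1% in fibroblasts to 0.0169% to 0.0265% in macrophages, and in endothelial cells both NdpKO points lie above both NdpWT points.

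Genes that act on collagen were taken from 5 lists. In fibroblasts 0 genes of any list were called by edgeR. Of the enzymes that fold and modify collagen 20 of 20 were tested, with a median log2 change of -0.01, and those of smallest p were Plod2, a lysyl hydroxylase, at 59.4, 50.9, 46.4 and 43.3 CPM (log2 -0.30 ± 0.13) and P3h2, a prolyl 3-hydroxylase (log2 0.61 ± 0.32). Of the genes of propeptide removal and crosslinking 12 of 13 were tested (median -0.08). Pcolce, an enhancer of propeptide cleavage, was at 384, 418, 295 and 310 CPM, with no overlap (log2 -0.41 ± 0.12, adjusted p = 0.715), and Loxl4, a lysyl oxidase, had a log2 change of -1.47 ± 0.36 with 0.493 to 1.64 CPM.

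Of the fibril partners 18 of 19 were tested (median -0.05). Fmod, a small proteoglycan that binds fibrils, was at 52.3, 40.7, 81.8 and 78.1 CPM, both NdpKO libraries well above NdpWT (log2 0.78 ± 0.15, adjusted p = 0.456), and Ogn, another of them, at 476, 419, 635 and 587 CPM (log2 0.45 ± 0.12, adjusted p = 0.695). Turnover genes had a median of -0.11 over 13 of 15 tested, with Mmp2, a gelatinase, at log2 -0.31 ± 0.13 and Mmp9, a gelatinase at 0.440 to 1.25 CPM, at log2 1.25 ± 0.40. Collagen receptors had a median of -0.04 over 9 of 11, with Ddr1, a collagen-binding kinase, at log2 0.30 ± 0.12 and Adgrg1 at -0.55 ± 0.40. The median over all genes tested in fibroblasts was -0.00066.

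In F1 no gene of the 5 lists was called. In endothelial cells, where 2.49% of all genes were called, 2 list genes were, both inhibitors of metalloproteinases from the turnover list and both higher. Timp2 was at 108, 106, 217 and 161 CPM (log2 0.82 ± 0.16, edgeR adjusted p = 0.0195) and Timp3 at 154, 178, 258 and 287 CPM (log2 0.71 ± 0.14, adjusted p = 0.0206). The turnover list had 8 of 11 tested genes above 0 in endothelial cells, the fibril partners 13 of 15, crosslinking 6 of 7, folding and modification 19 of 20 and receptors 4 of 6, with medians of 0.31, 0.62, 0.79, 0.24 and 0.20, beside 49.9% of all genes above 0 and a median of -0.00018.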

How the data were processed

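The authors deposited 1 sparse matrix per library of raw UMI counts per gene and barcode, for which the submitters' processing notes name mm10 and Cell Ranger 6.1.2. No label or header names a step that removes free RNA. Barcodes with at least 500 genes and 1000 UMIs and at most 10% mitochondrial UMIs were kept, and Scrublet calls (2.07% to 2.91% of barcodes, below the 10.3% to 15.3% expected from loading) were removed, so doublets remain. Cells were clustered with scanpy 1.11.5 and leidenalg 0.10.2 (2000 variable genes, 30 components, resolution 1, and 0.5 for fibroblasts with the 40 genes left out). A cluster was named where at least 3 markers were 2-fold above the other clusters, so names can differ from those of the authors, and 19.8% to 22.5% of cells stayed unnamed.

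Counts were summed per library and class with at least 50 cells in each library and tested in edgeR 4.0.16 (quasi-likelihood, TMM, filterByExpr with minimum count 10, Benjamini-Hochberg over all genes of the class, threshold 0.05). DESeq2 1.42.0 was an alternative. SEs come from the quasi-likelihood F. Levels between classes use plain totals. The test was checked on simulated data, where many 2-fold changes were missed. Doublings were called for 32 of 50 genes tested in fibroblasts, 33 of 50 in endothelial cells and 38 of 50 in F1. Halvings were called for 31 of 49, 22 of 47 and 33 of 49 in that order. Of unchanged genes, 24 of 15737, 25 of 12171 and 35 of 11977 were called. Members, lists and tests were chosen with earlier results of these data known. Named were members called anywhere, those of at least 10 CPM in fibroblasts, the 5 most abundant in mural and in endothelial cells, and for each list the 2 genes of smallest p. Members named for an unadjusted p under 0.05 alone were chosen after their values were seen. P-values rest on 2 libraries per genotype. Chi-square per degree of freedom was 55.7 and 53.1 between the libraries of a genotype, so none was a copy. Positions are 1-based, from GENCODE M21, and start regions from RefSeq (GRCm38.p6). CTTTGAT and the other motifs were searched as written.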

Additional observations from a re-analysis of the deposited data

How the results depend on the processing

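Values were recomputed under each alternative. Of the counts of called collagen genes and summed levels, 192 stayed within 1.5 times the main count or 1 SD and 43 did not. Of the values of named genes, 525 kept their direction and side of the threshold, 32 passed it newly, 9 no longer passed it and 31 changed sign. The replicate numbers are shared by both genotypes, and the labels say that runs were litter matched but not that a number marks the match. Deviations of same-numbered libraries correlated by -0.0023 to 0.573 over the groups of cells, and with only 2 pairs this does not settle the pairing. With a replicate block (share of all genes called in the same fit in brackets) the calls were 3 in all fibroblasts (Col9a2, Col7a1 and Col13a1; 2.47%), 6 in F1 (3.67%), 6 in F5 (2.06%), 2 in F2 (2.28%), 1 in F3 (0.469%), 1 in F4 (0.204%), 1 in endothelial cells (3.4%), 2 in mural cells (1.57%), 2 in monocytes or dendritic cells (1.62%) and 1 in other neurons (0.698%). DESeq2 called 1 in fibroblasts (0.315%), 1 in F5 (0.0516%) and 1 in endothelial cells (2.43%). With no filter on low counts there was 1 call in fibroblasts (0.166%), 2 in F5 (0.386%), 1 in F7 (0.229%), 8 in endothelial cells (3.83%), 1 in monocytes or dendritic cells (0.297%) and 1 in other neurons (0.305%). Stricter cells gave 0 in F1 and 1 in F5, and a mural difference of the summed share of -0.0574 percentage points. Subclusters at resolution 1 gave 1 in F1 (Col9a2), and removing the highest doublet scores 1 in other neurons. No share of all genes called is given for stricter cells, resolution 1, doublet removal or the DESeq2 calls in F1. Those counts therefore stand without a background. The same holds for the counts with a library left out, save those of endothelial cells, whose shares are given above. Leaving out 1 library at a time gave 0 to 1 calls in F0, F4, F7, fibroblasts, granule neuron lineage, mural cells and other neurons, 0 to 2 in F1 and in monocytes or dendritic cells, 0 to 4 in F5 and 1 to 9 in endothelial cells.

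Values of uncalled genes that changed sign were, in fibroblasts, Col12a1 (0.017) and Col5a1 (-0.0050) in stricter cells and Col8a1 (0.14) without the highest doublet scores. The range over left-out libraries crossed 0 in fibroblasts for Col12a1 (-0.39 to 0.26), Col16a1 (-0.17 to 0.052), Col1a1 (-0.43 to 0.059), Col25a1 (-0.094 to 0.31), Col26a1 (-0.074 to 0.064), Col5a1 (-0.058 to 0.41), Col6a2 (-0.30 to 0.17), Col6a3 (-0.29 to 0.15), Col8a1 (-1.09 to 0.56) and Col8a2 (-0.20 to 0.54). It did so for Col9a2 in F0 (-0.19 to 0.50), F2 (-0.19 to 0.72), F7 (-0.30 to 0.53) and mural cells (-0.28 to 1.65), for Col7a1 in F4 (-1.53 to 0.30), and in mural cells for Col1a1 (-1.13 to 0.17) and Col1a2 (-0.14 to 0.19). The cause was not tested. A lone library left in a group is assumed to vary like the other group. Col7a1 had 12 UMIs in all of F2 and 24 in F7, where it was not tested.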
